A study of Rattus norvegicus with 16 samples.

Results

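The 33 rat genes described here encode the receptors for glutamate, the main excitatory transmitter of the brain, the proteins that hold and serve those receptors in the postsynaptic density, and the transporters that load glutamate into vesicles. They were listed by symbol, and a probe was taken as a member where its accession mapped to a listed gene. The members comprised 4 AMPA receptor subunits (Gria1 to Gria4), 6 NMDA receptor subunits (Grin1, Grin2a to Grin2d and Grin3a), 5 kainate receptor subunits (Grik1 to Grik5), 6 metabotropic receptors (Grm2, Grm3, Grm4, Grm5, Grm7 and Grm8) with the delta receptor Grid1, the kinase subunits Camk2a and Camk2b with the calmodulin-binding protein neurogranin (Nrgn), 6 scaffolds (Dlg4, Dlgap1, Homer1, Shank1, Shank2 and Shank3) and the vesicular transporters Slc17a7 and Slc17a6. All 33 were measured, among 20471 genes tested, of which 12610 carried a gene symbol.

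The measurements came from 16 one-colour arrays of brain RNA from rats, with 8 weeks given as their age. Normal control rats without occlusion gave 5 arrays. Rats with MCAo (occlusion of the middle cerebral artery, a model of ischaemic stroke) gave 5 arrays after saline and 6 after intravenous infusion of 1000000 cells called hUMSC, the usual short form for human umbilical mesenchymal stem cells. Tissue was taken at 72 h after occlusion. No hemisphere, brain region, sex, strain or time of infusion was stated, and the control was not described as sham-operated. The labels did not state that each array came from a separate animal, so p-values measure only the spread between these samples. The RNA protocol in the labels described a blood kit with globin removal, whereas 13 general neuron genes averaged 3.16 to 3.22 log2 units above the array's 75th percentile in controls.

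Glutamate released from a presynaptic terminal opens AMPA receptors, which carry the fast excitatory current, and, once the membrane is depolarised, NMDA receptors, whose calcium entry activates calcium/calmodulin-dependent kinase. Kainate receptors modulate release and excitability, and metabotropic receptors signal through G proteins on both sides of the synapse. Scaffold proteins tie receptors to each other and to the cytoskeleton beneath the membrane. In ischaemic brain, excess glutamate acting on these receptors is a classical route to neuronal injury, and synaptic transcripts are also a measure of how much neuronal material a tissue sample holds.

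The proximal promoters of 4 members are shown because these genes stand at the ends of the response: Camk2b, Homer1 and Nrgn had the smallest p-values in hUMSC against control among the members with a single window in the table, and Grin2d was the only member that did not pass that test. Each sequence covers the 250 bases before the annotated start of the gene in RefSeq (build GRCr8), 5′ to 3′ on the gene's own strand. Camk2b lies at chr14:85147945-85148194 (minus strand), Homer1 at chr2:26278762-26279011 (plus), Nrgn at chr8:45452418-45452667 (minus) and Grin2d at chr1:105481237-105481486 (minus). Capitals mark any match, on either strand, to the core of the TATA box (TATAAA), of the GC box (GGGCGG), of the CCAAT box (CCAAT) or of the cyclic AMP response element (TGACG); overlapping matches are merged.
Camk2b: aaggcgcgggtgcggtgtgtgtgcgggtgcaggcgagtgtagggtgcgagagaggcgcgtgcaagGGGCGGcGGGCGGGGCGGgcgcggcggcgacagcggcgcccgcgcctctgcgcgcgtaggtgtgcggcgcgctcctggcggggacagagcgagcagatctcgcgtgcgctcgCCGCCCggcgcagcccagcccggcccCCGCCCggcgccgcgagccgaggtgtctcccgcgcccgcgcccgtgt
Homer1: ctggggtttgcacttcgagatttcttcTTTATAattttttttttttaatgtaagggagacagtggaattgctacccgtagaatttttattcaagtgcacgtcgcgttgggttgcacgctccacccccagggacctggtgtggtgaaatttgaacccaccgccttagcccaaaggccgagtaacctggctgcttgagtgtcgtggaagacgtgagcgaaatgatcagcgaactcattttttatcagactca
Nrgn: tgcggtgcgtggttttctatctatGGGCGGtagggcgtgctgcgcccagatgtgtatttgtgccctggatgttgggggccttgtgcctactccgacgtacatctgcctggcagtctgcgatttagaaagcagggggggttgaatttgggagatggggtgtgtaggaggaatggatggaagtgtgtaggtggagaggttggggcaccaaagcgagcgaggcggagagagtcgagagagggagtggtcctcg
Grin2d: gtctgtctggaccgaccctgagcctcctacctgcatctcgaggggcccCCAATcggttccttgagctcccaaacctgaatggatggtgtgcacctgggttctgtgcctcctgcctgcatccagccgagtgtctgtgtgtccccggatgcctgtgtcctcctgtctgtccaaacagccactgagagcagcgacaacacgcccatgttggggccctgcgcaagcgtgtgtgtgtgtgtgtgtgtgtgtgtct
The Camk2b window held 5 matches to GGGCGG, the Nrgn window held 1, the Homer1 window held 1 TATAAA on its minus strand, and the Grin2d window held 1 CCAAT. Of the 22 members with a window, 2 held TATAAA, 6 GGGCGG, 6 CCAAT and 4 TGACG. Over all 33469 windows the shares were 12.9%, 30.5%, 34.0% and 18.2%, against 9.09%, 27.3%, 27.3% and 18.2% of members, so the members' shares lay close to or below those of all windows. The other 11 members had no window in the table.

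Levels are given on the log2 scale as processed intensity minus the array's 75th percentile, so that 0 is the brightness of the 75th percentile and a step of 1 is a doubling. They compare arrays for a gene, not genes with each other. A gene passed the test when limma's moderated p, adjusted by Benjamini-Hochberg over all genes, was under 0.05. The members were read by 45 probes, all well above background on all 16 arrays and none saturated.

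Glutamate synapse transcripts were lower after occlusion in both groups, and nearly every member passed the test in hUMSC. Against control, 19 of 33 members were lower in saline, where 12.8% of all genes were, and 32 of 33 were lower in hUMSC, where 37.3% of all genes were. At an unadjusted p under 0.05 the lower members were 29 and 32 (21.6% and 40.1% of all genes). The change was below 0 in 31 members in saline (55.5% of all genes) and in 33 in hUMSC (61.4%). No member was higher in either comparison, also at an unadjusted p under 0.05, whereas 14.3% and 24.7% of all genes passed the test as higher. The median change of the members was -0.48 in saline and -0.86 in hUMSC, beside medians of -0.04 and -0.13 over all genes. The fall reached 2-fold in 10 members in hUMSC, against 2.39% of all genes, and in none in saline (0.23% of all genes). With median scaling 28 members were lower in saline (23.8% of all genes), and over all genes the split of 2933 higher to 2628 lower became 2381 to 4874. Both comparisons use the same control arrays, so they are not independent of each other.

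**Figure D1:**
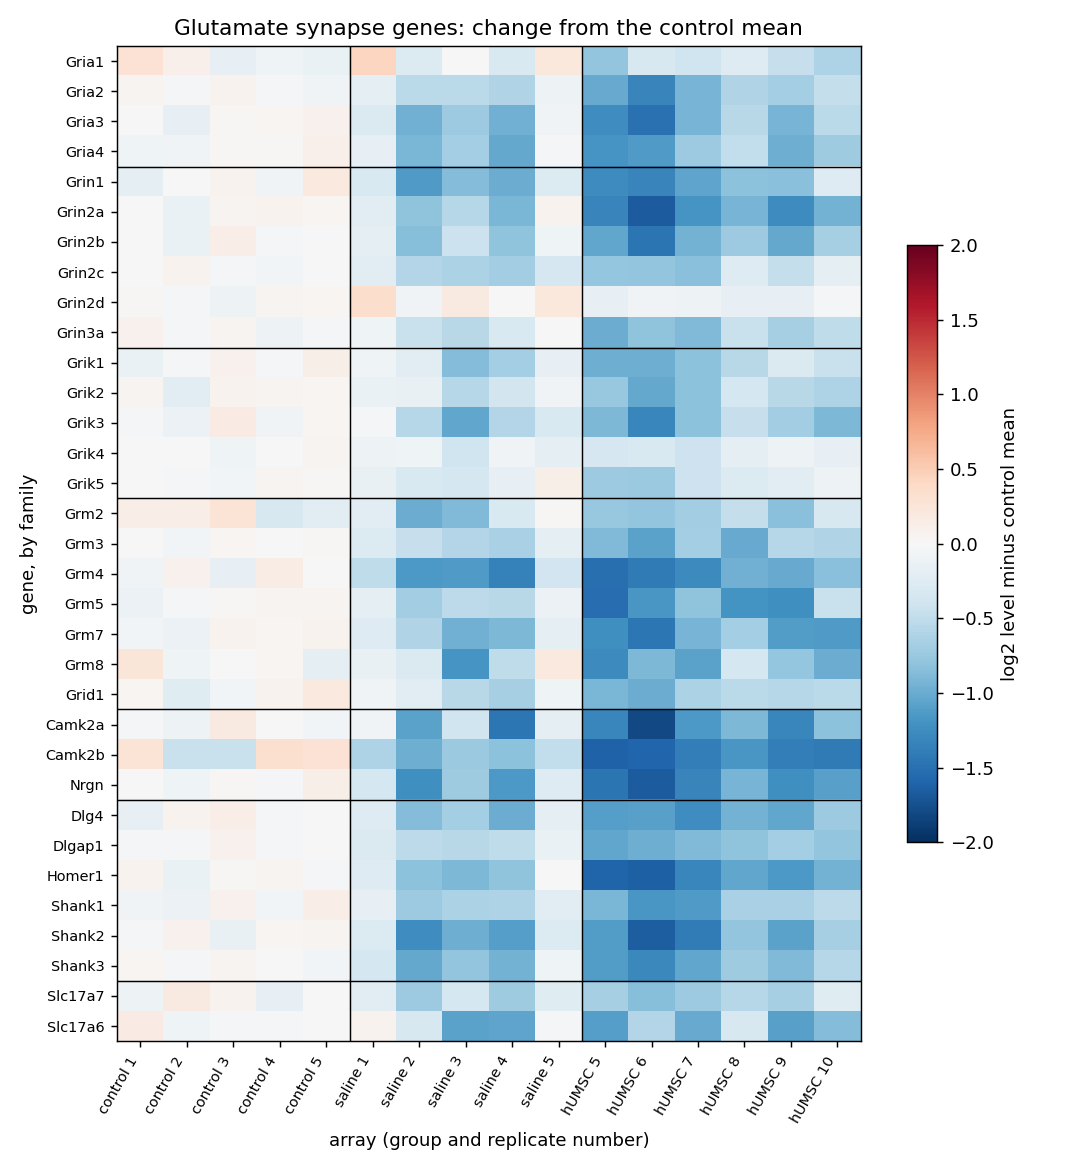
Change of each of the 33 genes (rows, grouped by family) on each of the 16 arrays (columns) from the mean of the 5 control arrays, in log2 units, with blue below and red above the control mean. All 6 hUMSC arrays are blue in nearly every row, while the saline arrays 1 and 5 are pale.

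The saline arrays were not alike. Averaged over the 33 genes, the change from the control mean was -0.66 in saline 2, -0.66 in saline 3 and -0.71 in saline 4, but -0.18 in saline 1 and -0.12 in saline 5. The controls lay between -0.05 and 0.03, and the hUMSC arrays 5 to 10 at -1.05, -1.11, -0.91, -0.64, -0.81 and -0.63. Saline 1 and 5 therefore lay between the controls and the other saline arrays. All 33 members were below their control mean on each of the 6 hUMSC arrays, and on saline 1 to 5 the counts were 30, 33, 31, 32 and 26. As group changes, 61.4% of all genes were below 0 in hUMSC and 55.5% in saline. The share of all genes on single arrays was not computed. With saline 1 and 5 left out, 29 members rather than 19 passed the test as lower in saline against control (24.3% of all genes), and 32 remained lower in hUMSC. The saline count was 12 without control 3, control 5 or saline 3, and 10 without saline 2 or saline 4.

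Other cell types moved on the same arrays. The 12 microglia and macrophage genes all passed the test as higher in saline and in hUMSC (14.3% and 24.7% of all genes). Their mean stood 2.18 above control in saline 1 and 1.24 in saline 5. It stood 3.34 to 3.61 above in saline 2, 3 and 4, and 3.51 to 4.38 in hUMSC. The 13 general neuron genes changed by -0.11 in saline 1 and -0.05 in saline 5, by -0.55 to -0.42 in saline 2, 3 and 4, and by -0.87 to -0.50 in hUMSC. Markers of striatal projection neurons fell by more, with medians of -1.14 and -1.77. In both comparisons 10 of 10 passed the test as lower (12.8% and 37.3% of all genes). These lists moved with the glutamate synapse genes, and their part in the result was not tested. In brain RNA, fewer neurons and less RNA per neuron cannot be told apart.

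**Figure D2:**
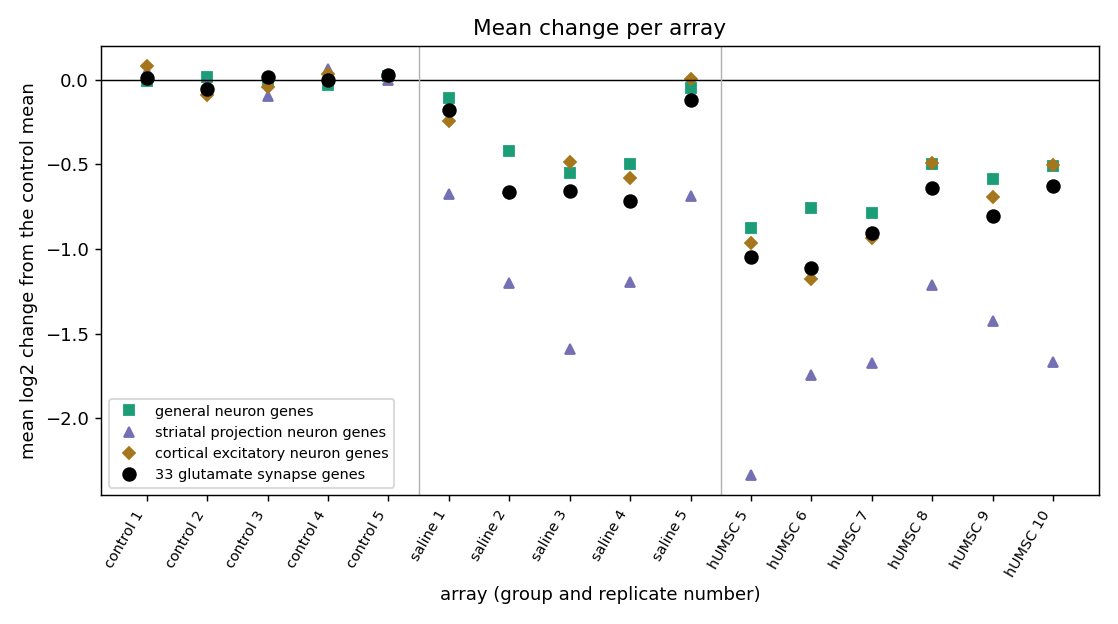
Mean log2 change from the control mean on each array for the 33 glutamate synapse genes (black circles) and for lists of general neuron, cortical excitatory neuron and striatal projection neuron genes. Saline 1 and 5 lie nearest the controls in every list, and the striatal genes lie lowest on every array after occlusion.

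AMPA receptor subunits form the channels of fast transmission, and Gria2, when present and edited, makes them nearly impermeable to calcium. Of the 4 subunits, 2 were lower in saline and 4 in hUMSC (12.8% and 37.3% of all genes), with median changes of -0.48 and -0.85. The saline calls of Gria2, Gria3 and Gria4 differed with the probe read, as given below. Gria2 stood at 1.84, 1.74, 1.85, 1.74 and 1.71 in controls 1 to 5, at 1.60, 1.25, 1.24, 1.18 and 1.67 in saline 1 to 5, and between 0.46 and 1.30 in hUMSC, with a median of 0.97. The saline values all lay below the lowest control, by little in saline 1 and 5, and the hUMSC values lay below every control. In hUMSC it stood at 56.0% of control (-0.84 ± 0.14 SE, adjusted p = 0.000125), and in saline at 76.2% (-0.39 ± 0.14 SE, adjusted p = 0.0525), which narrowly missed the threshold. Gria3 measured 2.92, 2.76, 2.95, 2.96 and 3.00 in controls 1 to 5 and 2.63, 1.95, 2.18, 1.95 and 2.84 in saline 1 to 5, and ranged from 1.43 to 2.38 in hUMSC around a median of 1.99. Saline 5 lay inside the control range and saline 1 just under it. The change was -0.95 ± 0.19 (SE, adjusted p = 0.000542) in hUMSC and -0.60 ± 0.20 (SE, adjusted p = 0.0340) in saline.

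Gria1 was the exception in saline. Gria1 stood at 0.33, 0.15, -0.13, -0.05 and -0.09 in controls 1 to 5, at 0.48, -0.23, 0.05, -0.27 and 0.26 in saline 1 to 5, and between -0.74 and -0.21 in hUMSC, with a median of -0.38. Saline 1 was the highest of all 16 arrays, and the saline and control values overlapped throughout. The change in saline was 0.01 ± 0.15 (SE, adjusted p = 0.957), with a 95% confidence interval of -0.30 to 0.32, and its direction turned with median scaling (-0.06) and with array weights (-0.09). In hUMSC all values lay below the controls (-0.47 ± 0.14 SE, adjusted p = 0.00853). Gria4 resembled Gria3, at -0.56 ± 0.18 (SE, adjusted p = 0.0325) in saline and -0.87 ± 0.17 (SE, adjusted p = 0.000577) in hUMSC.

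NMDA receptors pair the obligatory subunit Grin1 with Grin2 subunits, which set the channel's kinetics, or with Grin3a, which lowers its calcium permeability. In saline 4 of the 6 were lower and in hUMSC 5 (12.8% and 37.3% of all genes), with medians of -0.48 and -0.82. Grin2a, the subunit that predominates in mature forebrain, fell furthest in hUMSC. Grin2a measured 0.13, 0.01, 0.20, 0.21 and 0.18 in controls 1 to 5 and -0.09, -0.66, -0.43, -0.77 and 0.21 in saline 1 to 5, and ranged from -1.52 to -0.79 in hUMSC around a median of -1.08. Saline 5 was level with the highest control, and the 6 hUMSC values lay below every control and every saline array. It stood at 42.9% of control in hUMSC (-1.22 ± 0.16 SE, adjusted p = 3.29e-05) and at 71.2% in saline (-0.49 ± 0.17 SE, adjusted p = 0.0460).

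Grin2b, more abundant in development and retained in adult forebrain, also fell. Grin2b stood at -2.20, -2.32, -2.06, -2.21 and -2.19 in controls 1 to 5, at -2.39, -3.05, -2.63, -3.01 and -2.29 in saline 1 to 5, and between -3.65 and -2.86 in hUMSC, with a median of -3.18. Saline 5 lay inside the control range, and the hUMSC values lay below every control but overlapped saline 2 and 4. Its change was -0.98 ± 0.15 (SE, adjusted p = 9.5e-05) in hUMSC and -0.47 ± 0.16 (SE, adjusted p = 0.0396) in saline. Grin3a measured -0.05, -0.17, -0.09, -0.24 and -0.16 in controls 1 to 5 and -0.23, -0.59, -0.69, -0.44 and -0.14 in saline 1 to 5, and ranged from -1.14 to -0.58 in hUMSC around a median of -0.87. Saline 1 and 5 lay among the controls, and the hUMSC values were lower than all of them. Its change was -0.72 ± 0.11 (SE, adjusted p = 0.000105) in hUMSC and -0.28 ± 0.12 (SE, adjusted p = 0.0906) in saline, the latter not past the test.

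Grin2d, known mainly from interneurons and deep brain structures, was the member that moved least in hUMSC. It was read by 1 probe, with a control mean of 5.12, brighter than Nrgn (4.91) and every other member. Whether that probe reads Grin2d alone was not examined. Grin2d stood at 5.14, 5.09, 5.01, 5.18 and 5.15 in controls 1 to 5, at 5.47, 5.05, 5.30, 5.12 and 5.33 in saline 1 to 5, and between 4.95 and 5.08 in hUMSC, with a median of 4.99. Saline 1, 3 and 5 were above every control, and all hUMSC values lay below every control except control 3. Neither change against control passed the test (0.14 ± 0.07 SE, adjusted p = 0.163 in saline and -0.12 ± 0.07 SE, adjusted p = 0.152 in hUMSC), with a 95% confidence interval of -0.27 to 0.03 in hUMSC; under quantile normalisation it did pass there (-0.20, adjusted p = 0.0158). Grin1 changed by -0.71 ± 0.20 (SE, adjusted p = 0.0190) in saline and -0.93 ± 0.19 (SE, adjusted p = 0.000791) in hUMSC, and Grin2c, typical of cerebellar granule cells and astrocytes, by -0.50 ± 0.13 (SE, adjusted p = 0.0144) and -0.55 ± 0.13 (SE, adjusted p = 0.00153).

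Kainate receptor subunits had the smallest median changes among the receptor families, -0.26 in saline and -0.67 in hUMSC. Of the 5 genes, 1 was lower in saline and 5 in hUMSC, beside 12.8% and 37.3% of all genes. Grik2 measured -1.78, -2.04, -1.77, -1.77 and -1.78 in controls 1 to 5 and -1.96, -1.98, -2.40, -2.20 and -1.90 in saline 1 to 5, and ranged from -2.85 to -2.19 in hUMSC around a median of -2.52. Saline 1, 2 and 5 lay inside the control range, set at its lower end by control 2 alone, and the hUMSC values lay below all controls. The change was -0.69 ± 0.12 (SE, adjusted p = 0.000154) in hUMSC and -0.26 ± 0.12 (SE, adjusted p = 0.121) in saline, not past the test. Grik3 stood at -4.77, -4.86, -4.58, -4.81 and -4.71 in controls 1 to 5, at -4.79, -5.31, -5.79, -5.33 and -5.05 in saline 1 to 5, and between -6.06 and -5.20 in hUMSC, with a median of -5.60. Saline 1 was inside the control range and saline 3 lay under all but the lowest hUMSC array. The change was -0.85 ± 0.16 (SE, adjusted p = 0.000378) in hUMSC and -0.51 ± 0.17 (SE, adjusted p = 0.0361) in saline. Grik1 and the high-affinity subunits Grik4 and Grik5 passed the test in hUMSC but not in saline, at -0.67, -0.25 and -0.42.

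Metabotropic receptors divide into group I (Grm5), which raises calcium through phospholipase C, group II (Grm2 and Grm3) and group III (Grm4, Grm7 and Grm8), which inhibit adenylyl cyclase and often sit on terminals. With Grid1, 3 of 7 were lower in saline and 7 in hUMSC (12.8% and 37.3% of all genes), with medians of -0.43 and -0.89. Grm3, expressed in astrocytes as well as neurons, had tight controls. Grm3 measured -0.13, -0.17, -0.09, -0.12 and -0.11 in controls 1 to 5 and -0.40, -0.58, -0.71, -0.78 and -0.33 in saline 1 to 5, and ranged from -1.20 to -0.70 in hUMSC around a median of -0.90. All saline and hUMSC values lay below the controls, and the hUMSC range took in saline 3 and 4. Its change was -0.43 ± 0.11 (SE, adjusted p = 0.0105) in saline and -0.80 ± 0.10 (SE, adjusted p = 2.26e-05) in hUMSC.

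The presynaptic receptor Grm7 stood at -2.86, -2.93, -2.74, -2.78 and -2.74 in controls 1 to 5, at -3.07, -3.42, -3.77, -3.72 and -2.99 in saline 1 to 5, and between -4.25 and -3.50 in hUMSC, with a median of -3.94. The saline values did not overlap the controls, and neither did the hUMSC values. Its change was -0.58 ± 0.16 (SE, adjusted p = 0.0158) in saline and -1.09 ± 0.15 (SE, adjusted p = 3.86e-05) in hUMSC. Grm5 measured -1.40, -1.31, -1.25, -1.22 and -1.23 in controls 1 to 5 and -1.48, -1.97, -1.80, -1.84 and -1.40 in saline 1 to 5, and ranged from -2.81 to -1.73 in hUMSC around a median of -2.46. Saline 1 and 5 lay at the edge of the control range, and the hUMSC values lay below all controls. The change was -1.06 ± 0.16 (SE, adjusted p = 6.89e-05) in hUMSC, 48.0% of control, and -0.42 ± 0.17 (SE, adjusted p = 0.0727) in saline, not past the test.

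Grm4 had the largest fall of any member in saline, -0.90 ± 0.18 (SE, adjusted p = 0.00358), and changed by -1.17 ± 0.17 (SE, adjusted p = 6.22e-05) in hUMSC. Grm4 is abundant in cerebellar granule cells, whose markers were high on control 2: Gabra6 stood at -0.80 there and at -5.04 on control 1, and was not well above background on the other controls. After occlusion it was well above background on saline 2, 3 and 5 (-5.94, -5.35 and -4.10) and on hUMSC 7 (-4.50), and on none of the other arrays of these groups. The Grm4 level on control 2 was 0.09 above the control mean. Grm2, Grm8 and Grid1 passed the test in hUMSC but not in saline, at -0.65, -0.89 and -0.70, and Grm2 was 1 of the 2 members whose hUMSC values overlapped the controls, with Grin2d.

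Calcium/calmodulin-dependent kinase subunits and neurogranin, which holds calmodulin at rest, showed the deepest family change in hUMSC: 3 of 3 were lower with a median of -1.28, and 2 of 3 in saline with a median of -0.73. Of all genes 37.3% were lower in hUMSC and 12.8% in saline. Camk2b stood at 2.81, 2.09, 2.09, 2.85 and 2.82 in controls 1 to 5, at 1.91, 1.55, 1.78, 1.71 and 2.05 in saline 1 to 5, and between 0.92 and 1.36 in hUMSC, with a median of 1.14. The controls fell apart, with control 2 and 3 well under the other controls, yet every saline value lay below every control and every hUMSC value below every saline value. It stood at 60.3% of control in saline (-0.73 ± 0.16 SE, adjusted p = 0.00600) and 37.3% in hUMSC (-1.42 ± 0.15 SE, adjusted p = 7.41e-06), the largest fall of any member. Nrgn measured 4.91, 4.82, 4.93, 4.88 and 5.03 in controls 1 to 5 and 4.57, 3.68, 4.20, 3.77 and 4.66 in saline 1 to 5, and ranged from 3.25 to 3.98 in hUMSC around a median of 3.64. Saline 1 and 5 lay just under the controls and saline 2 and 4 within the hUMSC range. The change was -0.74 ± 0.18 (SE, adjusted p = 0.00988) in saline and -1.28 ± 0.17 (SE, adjusted p = 3.19e-05) in hUMSC. Camk2a changed by -0.64 ± 0.24 (SE, adjusted p = 0.0573) in saline, not past the test, where saline 1 and 5 lay near the controls, and by -1.21 ± 0.23 (SE, adjusted p = 0.000365) in hUMSC.

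Postsynaptic scaffolds were lower throughout: 6 of 6 in both comparisons (12.8% and 37.3% of all genes), with medians of -0.57 and -0.98. Dlgap1, which links Dlg4 (the main organiser of the density) to Shank proteins, had the smallest p of all members in hUMSC against control. Dlgap1 stood at -1.06, -1.05, -0.95, -1.07 and -1.04 in controls 1 to 5, at -1.32, -1.55, -1.58, -1.54 and -1.16 in saline 1 to 5, and between -2.07 and -1.71 in hUMSC, with a median of -1.87. The 3 groups did not overlap: all saline values lay under the controls and all hUMSC values under the saline values. Its change was -0.40 ± 0.09 (SE, adjusted p = 0.00564) in saline and -0.86 ± 0.08 (SE, adjusted p = 3.68e-06) in hUMSC. Homer1, which couples group I metabotropic receptors to Shank and to calcium stores, fell further in hUMSC. Homer1 measured 2.09, 1.89, 2.05, 2.07 and 1.99 in controls 1 to 5 and 1.76, 1.20, 1.12, 1.21 and 2.03 in saline 1 to 5, and ranged from 0.38 to 1.07 in hUMSC around a median of 0.79. Saline 5 lay among the controls, and the hUMSC values lay below every other array. The change was -1.28 ± 0.17 (SE, adjusted p = 2.69e-05) in hUMSC (41.2% of control) and -0.55 ± 0.17 (SE, adjusted p = 0.0308) in saline. Which of the short and long forms of Homer1 the probe reads was not examined. Among the other scaffolds the hUMSC change was -1.02 for Dlg4, -0.84 for Shank1, -1.11 for Shank2 and -0.93 for Shank3, and the saline changes ran from -0.77 (Shank2) to -0.47 (Shank1).

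Vesicular glutamate transporters mark the terminals of excitatory neurons, Slc17a7 mostly cortical and hippocampal ones and Slc17a6 mostly thalamic and other subcortical ones. Slc17a7 stood at -1.22, -0.95, -1.05, -1.28 and -1.12 in controls 1 to 5, at -1.34, -1.86, -1.48, -1.84 and -1.37 in saline 1 to 5, and between -1.98 and -1.37 in hUMSC, with a median of -1.79. Every saline and hUMSC value was below the lowest control, and the saline and hUMSC values interleaved. The change was -0.45 ± 0.13 (SE, adjusted p = 0.0183) in saline and -0.62 ± 0.12 (SE, adjusted p = 0.000465) in hUMSC, the smallest fall of the scaffold, kinase and transporter genes in hUMSC. Slc17a6 measured 2.15, 1.90, 1.94, 1.94 and 1.99 in controls 1 to 5 and 2.05, 1.66, 0.92, 0.93 and 1.94 in saline 1 to 5, and ranged from 0.89 to 1.66 in hUMSC around a median of 1.05. Saline 1 and 5 lay among the controls, saline 3 and 4 among the lowest hUMSC values. The change was -0.83 ± 0.21 (SE, adjusted p = 0.00291) in hUMSC and -0.48 ± 0.22 (SE, adjusted p = 0.105) in saline, not past the test.

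**Figure D3:**
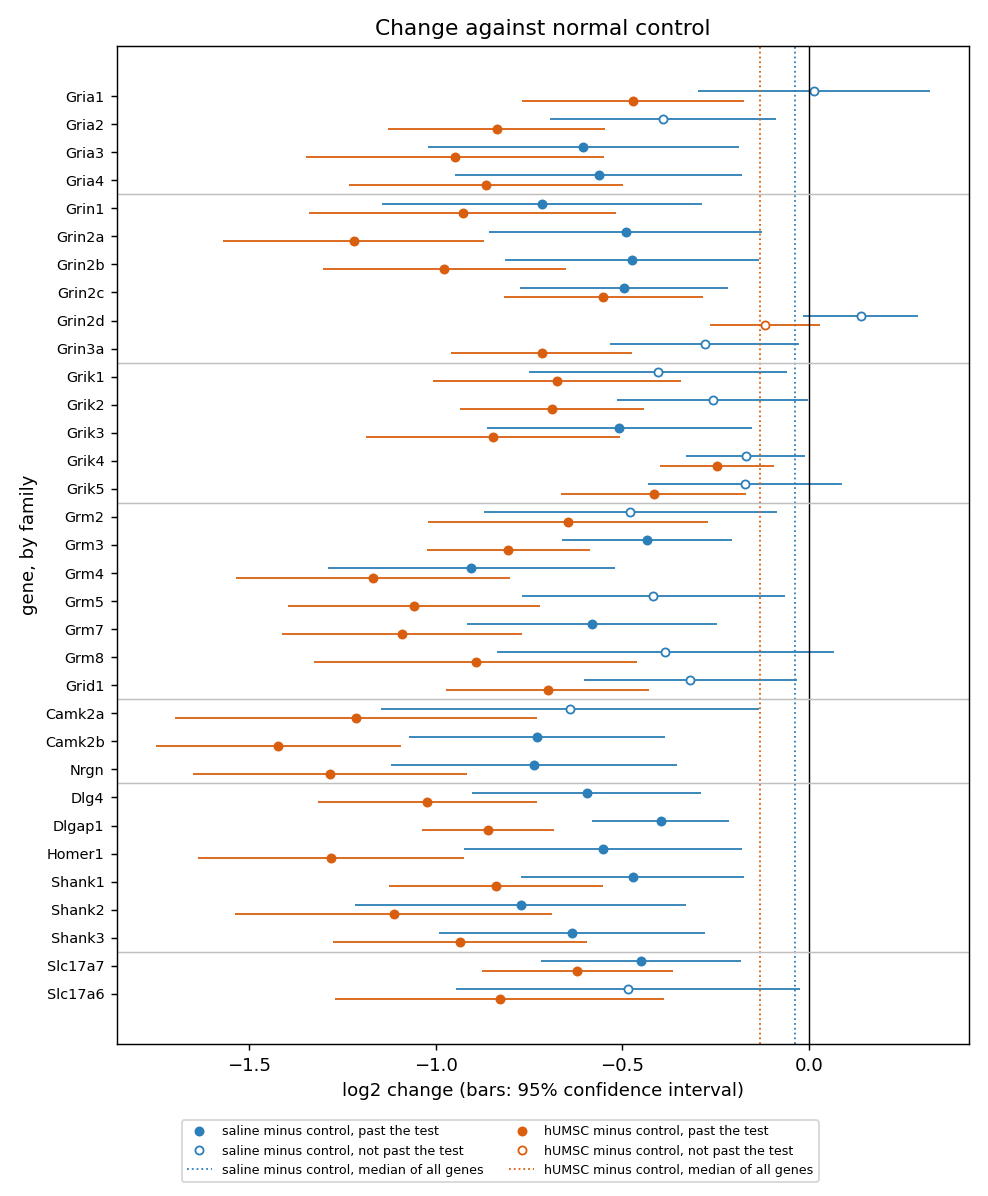
Log2 change of each of the 33 genes against normal control in saline (blue) and hUMSC (orange), with 95% confidence intervals; filled points passed the test, and dotted lines mark the median of all genes. All 33 orange points lie below 0, and in each row the orange point lies to the left of the blue point.

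In 11 members more than 1 probe was measured. Against control, probes of the same gene differed by at most 0.24 log2 units in saline and 0.23 in hUMSC, and every probe of these 11 members was below 0 in both comparisons. In saline the call changed with the probe for Gria2, Gria3 and Gria4. The second Gria2 probe passed (-0.55, adjusted p = 0.0190 over all probes) where the brighter did not. The second probes of Gria3 and Gria4 did not pass (-0.46 and -0.32, adjusted p = 0.0976 and 0.0836 over all probes), although the brighter ones did. The groups did not overlap in 15 members in saline (8.45% of all genes lay lower without overlap) and in 31 in hUMSC (26.9%). No member lay above all controls, as 9.9% and 19.2% of all genes did.

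The samples lay on 2 slides, with all 3 groups on each. Within slide 1 (3 controls, 3 saline, 2 hUMSC) 8 members passed as lower in saline (4.62% of all genes) and 29 in hUMSC (29.8%). Within slide 2 (2 controls, 2 saline, 4 hUMSC) none passed in saline, where 1 gene of 20471 did and 6 members had an unadjusted p under 0.05, and 20 passed in hUMSC (15.4%). The member medians within the slides were -0.50 and -0.46 in saline and -1.11 and -0.77 in hUMSC.

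The direct comparison of hUMSC with saline asks whether the infused cells altered the state of these genes after occlusion. All 33 changes were below 0 (59.8% of all genes), with a median of -0.37 beside -0.07 over all genes, and 14 members passed the test as lower (7.98% of all genes) and none as higher (4.82%). Over all genes 987 were higher and 1633 lower, a split that became 1187 to 1159 with median scaling, where 11 members were lower. The 14 were Gria1, Gria2, Grin2a, Grin2b, Grin2d, Grin3a, Grik2, Grm3, Grm5, Grm7, Camk2b, Nrgn, Dlgap1 and Homer1. The largest were Grin2a (-0.73 ± 0.16 SE, adjusted p = 0.0204), Homer1 (-0.73 ± 0.17 SE, adjusted p = 0.0214), Camk2b (-0.69 ± 0.15 SE, adjusted p = 0.0195) and Grm5 (-0.64 ± 0.16 SE, adjusted p = 0.0264). Dlgap1 had the smallest p, at -0.46 ± 0.08 (SE, adjusted p = 0.0103), but its second probe changed by -0.25 and did not pass (adjusted p = 0.178 over all probes). The hUMSC values lay below all saline values in 4 members, Grin2a, Camk2b, Dlgap1 and Homer1 (2.97% of all genes).

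Markers of other cell types also differed between hUMSC and saline. Neutrophil genes were higher in 3 of 3 (median change 2.04), T and NK cell genes in 4 of 6 (0.63), endothelial genes in 4 of 6 (0.50) and microglia and macrophage genes in 4 of 12 (1.06). Of all genes 4.82% were higher, or 987. That number was 5 without saline 1 and 5, 9 with the control arrays out of the fit and 0 within slide 2. Not all of these marker calls can therefore have held in those settings. Above the control mean, the neutrophil list averaged 0.80 to 2.17 on the saline arrays and 2.14 to 4.28 on the hUMSC arrays, and the T and NK cell list 0.46 to 1.60 and 1.70 to 2.37. The neutrophil list held 3 measured genes of 7 listed, and its controls were not alike. It stood at 1.47 on control 3, above saline 1 and 5, and between -0.55 and -0.08 on the other controls. General neuron genes were lower in 5 of 13 (median change -0.36) and striatal projection neuron genes in 3 of 10 (-0.57), beside 7.98% of all genes. The part of these lists in the members' change was not tested.

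These calls rested on few arrays. Without saline 1 and 5 no member passed the test (0.0879% of all genes), 9 members had an unadjusted p under 0.05, and the median change was -0.18, with 28 members below 0. Without saline 1 alone, or without saline 5 alone, 1 member passed. The count was 3 without hUMSC 5, 4 without hUMSC 6, 5 without hUMSC 7 and 8 without hUMSC 9, and with both hUMSC 5 and 6 left out it was 0 at a median of -0.28. With the control arrays out of the fit 1 member passed, at the same changes, and within slides 7 passed on slide 1 (median -0.55) and none on slide 2 (median -0.29, 10 members at an unadjusted p under 0.05). With slide as a block 18 members passed, as did 18.3% of all genes.

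By role, the calls took in 2 of 4 AMPA, 4 of 6 NMDA, 1 of 5 kainate and 3 of 7 metabotropic and delta receptor genes. They also took in 2 of the 3 kinase and neurogranin genes, 2 of 6 scaffolds and neither vesicular transporter. Of all genes 7.98% were lower in this comparison. Grin2c changed by -0.05 ± 0.13 (SE, adjusted p = 0.760) and Slc17a7 by -0.17 ± 0.12 (SE, adjusted p = 0.297), with 95% confidence intervals of -0.32 to 0.21 and -0.43 to 0.08. Gria1 (-0.49 ± 0.14 SE, adjusted p = 0.0385) and Grin2d (-0.26 ± 0.07 SE, adjusted p = 0.0334) differed between hUMSC and saline, while neither had passed the test in saline against control. Of the 14 genes, 8 were lower in all 3 comparisons and 6 had not passed the test in saline against control. Probes of a gene differed in their call for 5 of the 11 members with more than 1 probe. For Gria2 and Dlgap1 the brighter probe passed and the second did not, the second Gria2 probe changing by -0.06 where the brighter changed by -0.45. For Gria3 and Gria4 the second probe changed by more than the brighter one, at -0.66 and -0.62, and passed where the brighter did not (adjusted p = 0.0389 and 0.0143 over all probes). Of the 3 Shank1 probes 1 passed (-0.48, adjusted p = 0.0388 over all probes), not the brightest.

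**Figure D4:**
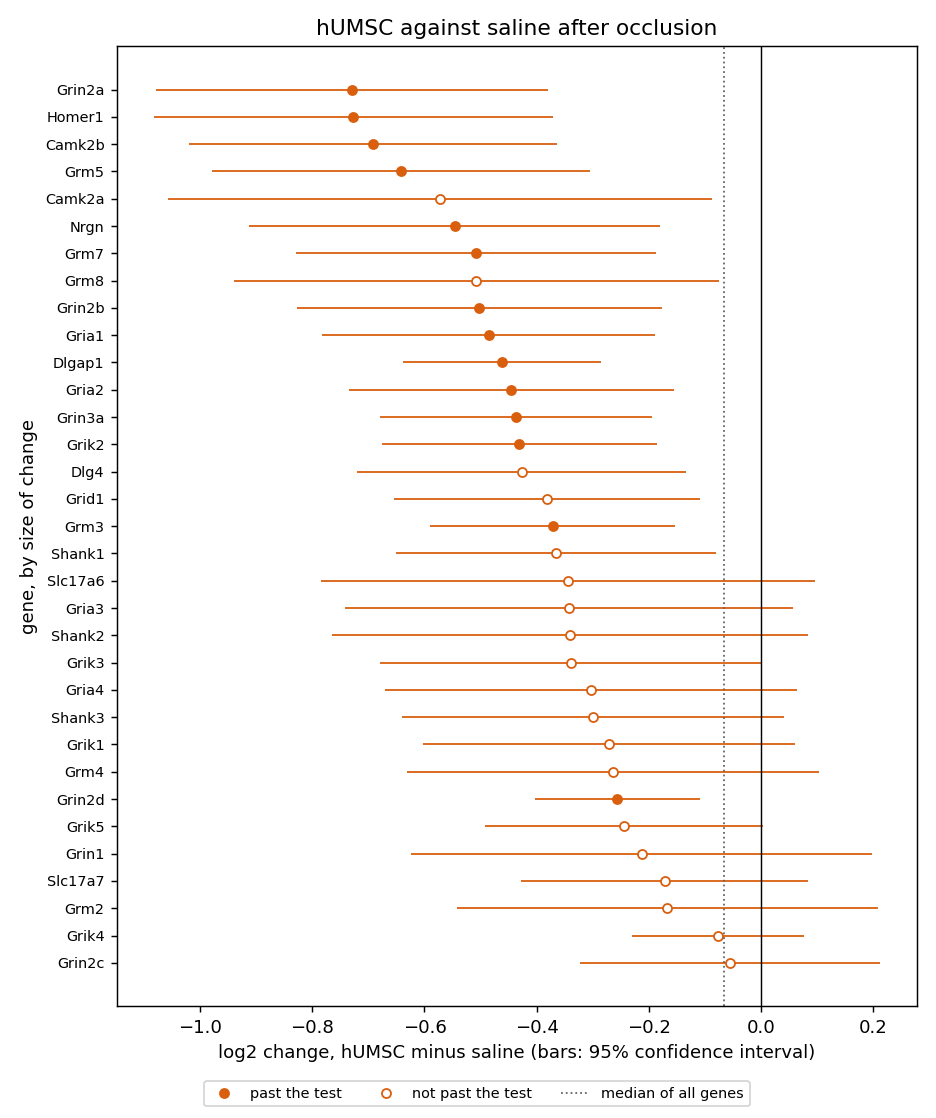
Log2 change of each of the 33 genes in hUMSC against saline, sorted by size, with 95% confidence intervals; filled points passed the test and the dotted line is the median of all genes (-0.07). All points lie below 0, and 14 are filled.

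The balance between related members was compared within each array, as the difference of their log2 levels, for 4 pairs and 3 comparisons. The pairs were chosen after the values had been seen, and the 12 p-values of two-sided exact permutation tests were adjusted together by Benjamini-Hochberg. With the control mean set to 0, Grin2b minus Grin2a lay between -0.08 and 0.08 in controls, between -0.16 and 0.14 in saline and between 0.21 and 0.28 in hUMSC. Every hUMSC array thus lay above every other array. The difference was 0.24 against control and 0.23 against saline (exact p = 0.00216 for both, the smallest possible with 6 against 5 arrays, adjusted p = 0.0130). In saline against control it was 0.02 (exact p = 0.794). Both subunits fell in hUMSC, and Grin2a fell further. Each was read by a single probe, with control means of -2.20 for Grin2b and 0.14 for Grin2a. Whether these probes respond alike to a change was not tested. For scale, the probes of Gria2 differed by 0.23 in hUMSC against control and by 0.39 in hUMSC against saline.

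Gria2 minus Gria1 stood between -0.23 and 0.24 in controls and between -0.62 and -0.26 in saline, where every array was below every control (difference -0.41, exact p = 0.00794, adjusted p = 0.0317). With any of the 5 saline arrays left out the adjusted p was 0.0635, although the remaining saline arrays still lay below every control. The exact test has fewer arrangements with fewer arrays, so this cannot show whether the difference rests on a single array. With quantile normalisation the adjusted p was 0.0952. In hUMSC the values ranged from -0.99 to 0.14 and overlapped the controls (difference -0.37, exact p = 0.0628, adjusted p = 0.188). This difference passed with normexp (-0.43, exact p = 0.0108, adjusted p = 0.0325) and without hUMSC 10 (-0.47, exact p = 0.00794, adjusted p = 0.0238). The pairs Camk2b with Camk2a and Slc17a6 with Slc17a7 did not pass in any comparison, the smallest adjusted p being 0.675.

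**Figure D5:**
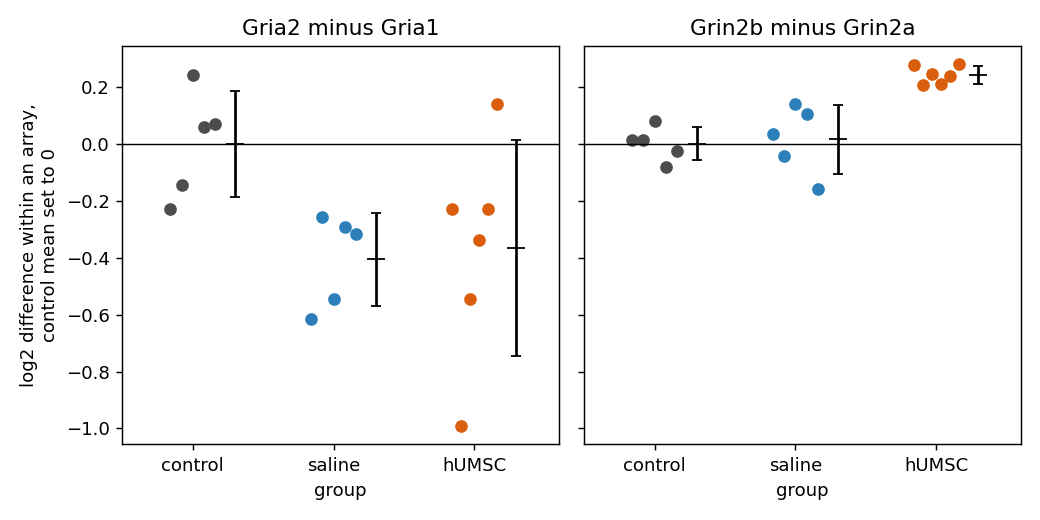
Difference of log2 levels within each array for Gria2 minus Gria1 (left) and Grin2b minus Grin2a (right), with the control mean set to 0; points are arrays, and the bars show the group mean and SD. On the right the 6 hUMSC arrays lie between 0.21 and 0.28, above all control and saline arrays.

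Of the 13 general neuron genes, 5 passed as lower in saline and 12 in hUMSC against control (12.8% and 37.3% of all genes). In hUMSC against saline 5 of the 13 passed as lower (7.98% of all genes). The members were set against the 13 neuron genes by centring each array on the mean of those 13, a step added after the values had been seen. On this scale 6 members were lower and 2 higher in saline, and 13 lower and 3 higher in hUMSC against control. Of all genes 1.22% and 2.70% were lower and 35.1% and 73.9% higher (median of all genes 0.29 and 0.54 on this scale). The 13 members lower in hUMSC had changed more than the neuron genes. The largest of these changes were in Camk2b (-0.75), Nrgn (-0.61), Homer1 (-0.61), Grin2a (-0.55), Camk2a (-0.54) and Grm4 (-0.50). The members that had changed less were Grin2d (0.55), Grik4 (0.42) and Grik5 (0.25). Between hUMSC and saline, 0.835% of all genes were lower on this scale and 41.6% higher, with a median of 0.28. In that comparison 2 members were lower, Grin2a (-0.39) and Homer1 (-0.38), and 2 higher, Grin2c (0.29) and Grik4 (0.27). None of these last 4 passed without saline 1, saline 5, hUMSC 5 or hUMSC 7. The count of 6 in saline was 1 without saline 2 or saline 4, 2 without control 4 and 3 without control 2, control 5 or saline 3, and normexp background correction gave 7 lower and 5 higher in hUMSC.

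The rest of the glutamatergic synapse was read from lists of 85 genes, of which 76 were measured. Against control, 38 were lower and 2 higher in saline, and 66 lower and 3 higher in hUMSC, with medians of -0.38 and -0.75. Of all genes, 12.8% were lower and 14.3% higher in saline, and 37.3% lower and 24.7% higher in hUMSC. Between hUMSC and saline 20 of the 76 were lower, where 7.98% of all genes were, and none higher. This count was 1 without saline 1 and 5, 5 without either of them alone, 7 without hUMSC 5 or hUMSC 6, 8 without hUMSC 7 and 0 with the control arrays out of the fit, and it was 38 with slide as a block. The saline count of 38 against control was 14 without saline 2 and 16 without saline 3 or saline 4, and 21 to 24 without any single control. The metabotropic receptor Grm6 was lower in hUMSC (-0.90 ± 0.16 SE, adjusted p = 0.000251). Of 13 auxiliary subunits, which traffic and gate AMPA and kainate receptors, 7 were lower in saline and 12 in hUMSC, led by Cacng3 (-1.40 ± 0.22 SE, adjusted p = 0.000106), Olfm3 (-1.17 ± 0.14 SE, adjusted p = 1.59e-05) and Cacng2, or stargazin (-1.06 ± 0.17 SE, adjusted p = 9.3e-05).

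Of 45 other postsynaptic density genes, 25 were lower in saline and 40 in hUMSC (12.8% and 37.3% of all genes). The largest falls in hUMSC were in Camk4 (-1.66 ± 0.25 SE, adjusted p = 7.33e-05), the synaptic adhesion gene Lrrtm3 (-1.33 ± 0.20 SE, adjusted p = 7.85e-05) and the inositol trisphosphate kinase Itpka (-1.29 ± 0.24 SE, adjusted p = 0.000336). Homer3 passed the test as higher, alone in that list: it changed by 1.19 ± 0.27 (SE, adjusted p = 0.00163) in hUMSC and by 0.75 ± 0.29 (SE, adjusted p = 0.0648) in saline, not past the test. Among 14 genes of glutamate uptake and metabolism, 4 were lower in saline and 10 in hUMSC (12.8% and 37.3% of all genes). They included Gls2, which releases glutamate from glutamine (-1.04 ± 0.20 SE, adjusted p = 0.000479), and the astrocytic uptake carrier Slc1a2 (-0.89 ± 0.15 SE, adjusted p = 0.000179). The vesicular transporter Slc17a8 also passed (-0.98 ± 0.24 SE, adjusted p = 0.00264), but its probe was well above background on 2 of 6 hUMSC, 3 of 5 saline and 4 of 5 control arrays, so the size of its change is uncertain. Glul, the astrocytic enzyme that turns glutamate into glutamine, and Slc7a11, the cystine carrier that exports glutamate, rose in saline (0.38 ± 0.08 SE, adjusted p = 0.00336 and 0.33 ± 0.11 SE, adjusted p = 0.0352) and in hUMSC (0.43 ± 0.07 SE, adjusted p = 0.000146 and 0.51 ± 0.10 SE, adjusted p = 0.000622). The saline call of Slc7a11 was lost with median scaling (0.26, adjusted p = 0.0773) and without any of control 1, 2, 4 and 5 or saline 2, 3 and 4 (adjusted p from 0.0523 to 0.0943).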

How the data were processed

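RNA from rat brain was hybridised to one-colour (Cy3) arrays, 16 samples in all, and per the file headers each file holds spot intensities as Agilent Feature Extraction 11.0.1.1 wrote them (100.0.1.1 in the submitters' processing notes). The processed intensity, per the file headers, is background-subtracted by the scanner software, and the deposited flags (scored 0 or 1) mark spots that are outliers, saturated or well above background. The deposited value table equalled the mean processed intensity per probe and served as an alternative. The precision is limited by the number of arrays.

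Outlier and control spots were left out, spots of a probe were averaged, and log2 values computed from the deposited intensities were set against each array's 75th percentile. Accessions were matched to RefSeq symbols (GRCr8): 18355 probes matched and 12012 did not. A probe had to be well above background on 5 arrays, and the brightest probe stood for its gene. limma 3.58.1 (R 4.3.3) fitted 1 mean per group over 16 arrays (13 residual degrees of freedom), adjusted by Benjamini-Hochberg over 20471 genes. The fit was tested on simulated data. Groups came from the labels: control 5, saline 5, hUMSC 6.

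The members and all gene lists were chosen with earlier results of these data known. Values are printed for the 2 members per family with the smallest p in hUMSC against control and for every member past the test against saline, array by array in control and saline and as the lowest, median and highest of the 6 hUMSC arrays; of other lists, up to 3 genes per list and direction are named, by size of change. Some genes that this rule selects are not reported here. Alternatives were median scaling, quantile normalisation, normexp, background filters, outlier spots kept, the deposited table, the median of probes, the 2 groups alone, array weights, slide, the replicate block and leaving out arrays. Normexp was run on the median rather than the planned mean signal. Slide numbers come from the file headers.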

Additional observations from a re-analysis of the deposited data

Results flagged for a closer look

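In 99 groups of 5 or 6 samples, 1 for each member and study group, the highest or lowest sample was set against the spread of its group by Dixon's test, which flags about 1 in 20 groups by chance. In 2 of them 1 sample stood apart. The Grik2 level on control 2 was -2.04, against -1.78 to -1.77 on the other controls. The Dlgap1 level on control 3 was -0.946, against -1.07 to -1.04 on the other controls.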

How the results depend on the processing

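The hUMSC fall against control kept 32 or 33 members under every alternative except the single slides (29 and 20 members on slides 1 and 2), and no member was higher in any comparison under any alternative. The saline count of 19 lower members was 28 with median scaling, 29 with array weights, 8 and 0 within slides 1 and 2, 29 without saline 1 and 5, and 10 to 27 with single arrays left out. The hUMSC against saline count of 14 was 7 with no filter on dim probes, 1 with the 2 groups alone, 1 with array weights, 7 and 0 within slides 1 and 2, 0 without saline 1 and 5, 0 without hUMSC 5 and 6, 18 with slide as a block, and 1 to 17 with single arrays left out. Over all genes that comparison gave 987 higher and 1633 lower, but 2655 and 3739 with slide as a block, 1187 and 1159 with median scaling, 429 and 942 with no filter, 9 and 38 with the 2 groups alone, 20 and 103 with array weights, 5 and 18 without saline 1 and 5, 16 and 133 without hUMSC 5 and 6, 327 and 712 within slide 1, and 0 of either within slide 2 (3191 at an unadjusted p under 0.05). Saline against control gave 2933 higher and 2628 lower, 2381 and 4874 with median scaling, 4122 and 5115 with array weights, 2083 and 946 within slide 1, and 0 and 1 within slide 2 (2453 unadjusted). hUMSC against control gave 5062 and 7638, and 3032 and 3148 within slide 2. Of the 76 other glutamatergic synapse genes, the 20 lower in hUMSC against saline became 13 with no filter, 0 with the 2 groups alone, 4 with array weights, 38 with slide as a block, 8 and 0 within slides 1 and 2, 1 without saline 1 and 5, 3 without hUMSC 5 and 6, and 5 to 30 with single arrays left out. The 38 lower in saline became 58 with array weights, 16 and 0 within slides 1 and 2, and 14 to 51 with single arrays left out. The 2 higher in saline became 1 with median scaling, no filter, the median of probes, the 2 groups alone or slide 1, 0 within slide 2, and 1 to 3 with single arrays left out.
Replicate numbers 1 to 5 are shared by control and saline. The labels do not say that they pair samples, so the numbers were not taken as pairs. Deviations of same-numbered samples correlated at -0.05, 0.18, 0.01, 0.11 and 0.17. Those of different-numbered samples ran from -0.20 to 0.22, a range that takes in the same-numbered values, so the correlations cannot decide pairing. With the replicate block 12 members and 17 of the other synapse genes were lower in saline, and 2153 genes were higher and 1046 lower.
Directions turned in small, uncalled changes. Gria1 in saline against control was -0.0552 with median scaling, -0.0899 with array weights, -0.0205 within slide 1, -0.193 without saline 1 and 5, and -0.0913 to 0.0948 with 1 array left out. Grin2c in hUMSC against saline was 0.00596 with normexp, 0.00166 with array weights, 0.0780 within slide 2, 0.0895 without saline 1 and 5, 0.0589 without hUMSC 5 and 6, and -0.130 to 0.0143 with 1 array left out. Without saline 1 and 5, Gria4, Grin1, Grm2 and Grm4 turned there to 0.00639, 0.0736, 0.0829 and 0.0419, and Grm2 in saline within slide 2 was 0.121. Among pairs, normexp turned Gria2 minus Gria1 to -0.0117 (hUMSC against saline), and quantile normalisation turned Grin2b minus Grin2a to -0.0333 and Slc17a6 minus Slc17a7 to 0.0235 (saline against control). With 1 array left out, hUMSC against saline ran from -0.233 to 0.0597 for Camk2b minus Camk2a and from -0.0606 to 0.166 for Gria2 minus Gria1. Saline against control ran from -0.268 to 0.0244 for Camk2b minus Camk2a, from -0.0152 to 0.0597 for Grin2b minus Grin2a and from -0.145 to 0.134 for Slc17a6 minus Slc17a7. The cause of these shifts was not tested.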
